A study of Mus musculus with 2 samples.

Results

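A bidirectional promoter is the short stretch between the 5′ ends of a pair of genes that stand head to head on opposite strands and are transcribed away from each other. Accessible chromatin was described here at 734 such stretches of the mouse autosomes, each flanked by 2 protein-coding genes of GENCODE vM21 whose annotated 5′ ends lie at most 1000 bp apart. A peak was a member when it overlapped the interval between both 5′ ends, extended by 200 bp on each side. By this rule 609 of 24863 autosomal peaks were members in the library prepared without density gradient centrifugation, and 672 of 87358 in the library prepared in a 50 µL reaction system. The pairs held 1448 of 20807 autosomal protein-coding genes, and the windows of the pairs fell on 714 separate stretches because 40 pairs shared a gene with another pair. The comparison class was the 5′ ends of the other 19359 protein-coding genes, with peaks counted within 1 kb of each.

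Both libraries were made by scFFPE-ATAC, a single-cell assay for archived tissue fixed in formalin and embedded in paraffin (FFPE), in which the Tn5 transposase inserts adapters into open DNA of isolated nuclei and further rounds of barcoding mark each nucleus. The tissue was spleen of C57BL/6J mice aged 8 weeks, fixed for 16 h in 4% formalin, and animals of both sexes were used in the study. One library left out density gradient centrifugation, the step that separates nuclei from debris. For the other, the labels name a tagmentation reaction of 50 µL, and whether its nuclei went through the gradient was not stated on its own. Each condition was 1 library, which was analysed as a list of peaks called over all of its nuclei. The share of nuclei that were open at a promoter and the signal per nucleus therefore cannot be told apart. No significance test was possible, and the exact (Clopper-Pearson) 95% intervals given with shares cover counting error over pairs or promoters only.

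The list without density gradient centrifugation held 25343 peaks over 8.81 Mb, and the 50 µL list held 89382 peaks over 38.0 Mb. Numbers of reads and cells are not in the lists, so depth is unknown, and fold enrichment and −log10 q depend on it. Among the promoters of marker genes, peaks lay within 1 kb of 3 and 6 of 6 B cell genes, of 1 and 4 of 6 T cell genes and of 0 and 2 of 5 red pulp macrophage genes, without density gradient centrifugation and in the 50 µL library. None of 5 hepatocyte genes had a peak in either list, and 1 of 4 muscle genes, Ckm, had one in both. Ckm is itself in a pair and is described below.

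Divergent promoters are typically rich in CpG, lack a TATA box and serve genes of basic cell functions such as DNA repair, RNA processing and mitochondrial metabolism. The same nucleosome-free stretch carries binding sites for general promoter factors, among them ETS proteins, NRF1, NF-Y and SP/KLF proteins, and loads a polymerase in each direction. Such promoters are known to be open in most cell types. Because both genes are read from 1 stretch, its midpoint is a natural centre, and the gene on the minus strand always lies at lower coordinates than the gene on the plus strand.

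The DNA between both 5′ ends is shown for the 6 pairs of at most 300 bp with the highest mean rank by −log10 q over both libraries. Each is read on the plus strand of mm10, from the base after the 5′ end of the minus-strand gene to the base before that of the plus-strand gene, so it holds no annotated exon of either gene record. Capitals mark matches to any of 11 short motifs that were searched on both strands. The letters searched were CCGGAAG for ETS factors and GCGCANGCG for NRF1. Those of NF-Y were CCAATCA and those of SP/KLF factors GGGGCGGG. YY1 was searched as AAGATGGCG and the cAMP response element (CRE) as TGACGTCA. The E-box was CACGTG, the BANP element CTCGCGAG and the ZNF143 element ACTACAATT. The TATA box was searched with TATAAAA and PU.1 with GAGGAAGT. The ETS and PU.1 letters overlap in their GGAAG core.
Ndufa8/Morn5, chr2:36049407-36049457: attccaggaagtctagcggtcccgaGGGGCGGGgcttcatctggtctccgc
Nadsyn1/Dhcr7, chr7:143822850-143823144: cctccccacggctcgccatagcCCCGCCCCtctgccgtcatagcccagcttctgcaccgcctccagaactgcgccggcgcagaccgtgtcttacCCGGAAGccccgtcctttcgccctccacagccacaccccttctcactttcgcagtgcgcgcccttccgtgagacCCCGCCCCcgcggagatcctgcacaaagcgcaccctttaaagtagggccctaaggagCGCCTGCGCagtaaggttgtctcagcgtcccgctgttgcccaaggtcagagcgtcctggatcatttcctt
Trmt6/Mcm8, chr2:132816056-132816140: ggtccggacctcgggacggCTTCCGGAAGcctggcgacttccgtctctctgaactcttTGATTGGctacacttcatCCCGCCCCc
Cep128/Tshr, chr12:91384410-91384562: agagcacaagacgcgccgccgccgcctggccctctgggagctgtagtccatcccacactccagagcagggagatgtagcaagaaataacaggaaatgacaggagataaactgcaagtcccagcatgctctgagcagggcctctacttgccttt
Cenpx/Lrrc45, chr11:120713739-120713924: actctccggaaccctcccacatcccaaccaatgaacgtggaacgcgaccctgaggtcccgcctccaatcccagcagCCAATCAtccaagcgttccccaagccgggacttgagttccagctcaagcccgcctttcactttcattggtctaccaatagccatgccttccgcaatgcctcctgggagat
Mrpl32/Psma2, chr13:14613166-14613239: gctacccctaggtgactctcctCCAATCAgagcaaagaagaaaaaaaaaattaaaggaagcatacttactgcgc
Of these 6 intervals, 5 held a match. The interval of Trmt6, a subunit of a tRNA methyltransferase, and Mcm8, a helicase of homologous recombination, held ETS letters on both strands in 1 overlapping run, NF-Y letters and SP/KLF letters within 85 bp. The intervals of Cenpx/Lrrc45 and Mrpl32/Psma2 held 1 NF-Y match each, and that of Cep128/Tshr held none of the 11.

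For contrast, 3 intervals without a peak in either library are shown, the shortest of at least 60 bp.
4930430F08Rik/1700017N19Rik, chr10:100590424-100590483: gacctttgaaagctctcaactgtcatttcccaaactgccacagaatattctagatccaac
Ddx25/Pus3, chr9:35558529-35558594: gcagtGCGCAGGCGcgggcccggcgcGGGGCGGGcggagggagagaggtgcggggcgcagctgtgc
Kctd19/Lrrc36, chr8:105413503-105413570: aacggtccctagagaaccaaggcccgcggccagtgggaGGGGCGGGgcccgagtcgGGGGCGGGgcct
Those of Ddx25/Pus3 and Kctd19/Lrrc36 held 83.3% and 76.5% GC with SP/KLF letters, the former with NRF1 letters too, and the interval of the pair of Riken clones held 41.7% GC and no CpG. Ddx25 is an RNA helicase of male germ cells, and Kctd19 acts in male meiosis. A match is a description of letters and not of a bound site.

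The first question was how many bidirectional promoters were recovered as open in FFPE spleen. Of the 734 pairs, 602 (82.0%, 95% interval 79.0 to 84.7) had a peak without density gradient centrifugation, while 667 (90.9%, 88.6 to 92.9) had one in the 50 µL library. Over all autosomal protein-coding genes, 40.7% had a peak within 1 kb of the 5′ end without density gradient centrifugation and 53.0% in the 50 µL library. At the other 19359 5′ ends the shares were 37.4% (36.7 to 38.0) and 50.1% (49.4 to 50.8), so the pairs lay 44.7 (41.6 to 47.5) and 40.8 (38.3 to 42.9) percentage points higher, beyond counting error. The window at the other 5′ ends was the wider one, since the median pair window spans its distance of 128 bp plus the extensions. A pair, however, counts through a peak at either of its 2 genes, whereas each other 5′ end belongs to 1 gene. The part of this in the differences was not tested.

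**Figure D1:**
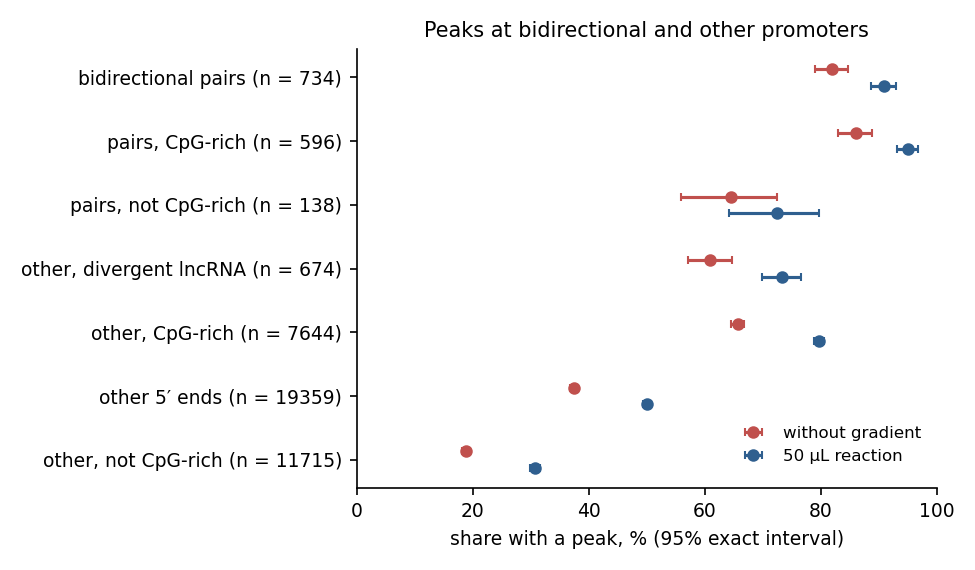
Share of bidirectional pairs and of other protein-coding 5′ ends with at least 1 peak (x axis, percent), by class and library, as points with exact 95% intervals that cover counting error only. Pairs lie at 82.0% and 90.9%, CpG-rich other 5′ ends at 65.7% and 79.7%, and other 5′ ends without CpG-rich promoters at 18.9% and 30.8%.

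CpG content differed between the classes and moved with these shares. A promoter was called CpG-rich when its 300 bp window had at least 50% GC and an observed over expected CpG ratio of at least 0.6. This held for 596 of 734 pairs (81.2%) and for 7644 of 19359 other 5′ ends (39.5%). Among CpG-rich promoters the pairs were still higher, at 86.1% (83.0 to 88.8) against 65.7% (64.6 to 66.8) without density gradient centrifugation and 95.1% (93.1 to 96.7) against 79.7% (78.8 to 80.6) in the 50 µL library. The 138 pairs that were not CpG-rich had a peak in 64.5% (55.9 to 72.4) and 72.5% (64.2 to 79.7), beside 18.9% and 30.8% of the other 5′ ends of that kind. Other 5′ ends with a divergent long noncoding RNA within 1000 bp, 674 in number, lay between the classes, at 61.0% (57.2 to 64.7) and 73.3% (69.8 to 76.6). Those of them that were CpG-rich reached 72.0% (67.8 to 75.9) and 84.5% (80.9 to 87.6), below CpG-rich pairs in both libraries. In all these classes a pair offers the 5′ ends of 2 protein-coding genes and a comparison window is set on 1, and the part of this was not tested.

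Within the pairs, the share with a peak did not rise steadily with GC. Without density gradient centrifugation it was 70.1% (57.7 to 80.7) of 67 pairs below 50% GC, 87.7% (81.6 to 92.3) of 162 pairs from 60 to 65% GC and 75.2% (66.7 to 82.5) of 125 pairs of 70% GC or more. In the 50 µL library the same groups had 76.1% (64.1 to 85.7), 93.2% (88.2 to 96.6) and 91.2% (84.8 to 95.5). The difference between the last 2 of these groups was not tested. The other 5′ ends had 57.7% (55.7 to 59.6) from 60 to 65% GC and 49% (46.8 to 51.2) from 70% GC without density gradient centrifugation, while in the 50 µL library they had 71.5% (69.7 to 73.3) and 71.8% (69.8 to 73.8).

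Set side by side, the libraries recovered nearly nested sets of pairs. The 50 µL list was the longer one, with 89382 peaks against 25343, and cut to the shorter length it had a peak at 632 pairs. With a fold enrichment of at least 4, 550 pairs had a peak without density gradient centrifugation and 528 in the 50 µL library. The part of list length in the nesting was not tested. The nesting was not particular to pairs. Of the other 5′ ends, 7200 had a peak in both libraries and 9627 in neither. A further 2499 had one in the 50 µL library only, and 33 had one without density gradient centrifugation only. A peak was found in both libraries at 601 pairs, in the 50 µL library only at 66, without density gradient centrifugation only at 1 and in neither at 66. The 1 exception was Tango2/Arvcf, with a peak of 221 bp at −log10 q 8.98, and the nearest 50 µL peak lay 3595 bp away. Arvcf is a catenin of cell junctions. Of the 167 pairs with the most significant 50 µL peaks (−log10 q 58.4 to 90.9), 164 (98.2%, 94.8 to 99.6) also had a peak without density gradient centrifugation, while of the 166 with the least significant (7.45 to 35.3) 129 did (77.7%, 70.6 to 83.8). The 66 pairs seen only in the 50 µL library had a median −log10 q of 33.9 there, against 48.0 at the shared pairs, and a median GC content of 66.7% against 62.3%.

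The pair Fbxo44/Fbxo2, 2 F-box genes of ubiquitin ligases, went against this order. Its 50 µL peak reached −log10 q 90.2 and fold enrichment 7.67, yet without density gradient centrifugation the nearest peak was 8194 bp away. That 50 µL peak ended 42 bp before the 5′ end of Fbxo44, so it lay inside this gene and covered neither 5′ end.

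The most significant member peak without density gradient centrifugation lay at Vta1/Nmbr, at chr10:14705316-14705837 (−log10 q 43.6, fold enrichment 10.2). Vta1 works in endosomal sorting and Nmbr is a receptor for neuromedin B, and their 5′ ends stand 31 bp apart. The 50 µL library had a peak of 826 bp there, at −log10 q 60.8. Next came Fam219a/Dnaic1 (−log10 q 41.6), whose Dnaic1 encodes a dynein chain of motile cilia, Ndufa8/Morn5 (39.6) with a subunit of respiratory complex I, and Elp4/Immp1l (38.8) with a subunit of the Elongator complex. The other 6 of the first 10 ranged from 33.7 to 37.4 and were Rad51ap1/D6Wsu163e, Fbxo38/Spink10, Nadsyn1/Dhcr7, Exosc1/Zdhhc16, Mtrr/Fastkd3 and Heatr5b/Gpatch11.

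In the 50 µL library the most significant member peak lay at Trmt6/Mcm8 (−log10 q 90.9, fold enrichment 7.86, 689 bp wide), and the same pair had −log10 q 28.0 without density gradient centrifugation. H2-T22/Gm6034 followed at 90.4 with the highest fold enrichment of any pair, 10.6, and H2-T22 encodes a nonclassical MHC class I molecule. Chtf18/Rpusd1 stood at 90.4, with Chtf18 a subunit of a loader of the replication clamp. Pcsk4/Reep6, also among the first 10, differed in shape between the libraries: its 830 bp peak covered both 5′ ends in the 50 µL library while the other library had a 344 bp peak at −log10 q 5.56 over the 5′ end of Reep6 only. No pair stood among the first 10 in both libraries.

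**Figure D2:**
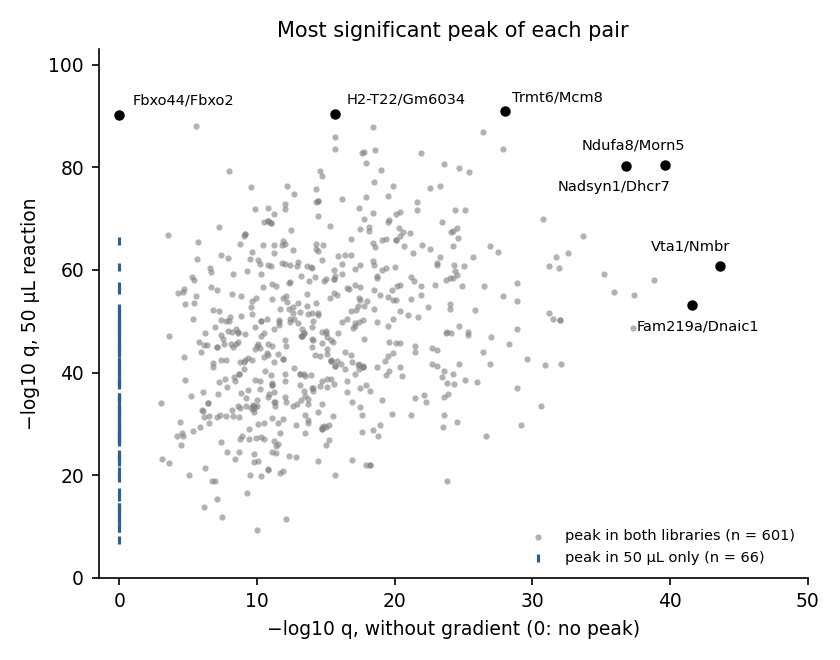
−log10 q of the most significant peak of each pair without density gradient centrifugation (x axis) and in the 50 µL library (y axis), as grey points for 601 pairs with a peak in both and blue ticks at 0 for 66 pairs with a peak in the 50 µL library only. Named pairs are black. Trmt6/Mcm8 is highest on the y axis at 90.9 and Vta1/Nmbr on the x axis at 43.6, and Fbxo44/Fbxo2 sits at 0 on the x axis with 90.2 on the y axis.

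Member peaks were wider than those at other promoters in both lists, but the classes were gathered with unlike windows. Peaks within 1 kb of other 5′ ends numbered 7513 beside 7233 5′ ends with a peak without density gradient centrifugation. In the 50 µL library they numbered 12729 beside 9699. Member peaks touched the narrower pair windows, 609 at 602 pairs and 672 at 667 pairs. The part of the windows in width and fold enrichment was not tested. Their median width was 492 bp (quartiles 369 and 639) without density gradient centrifugation and 974 bp (756 and 1228) in the 50 µL library, beside 389 bp (286 and 541) and 614 bp (347 and 953) at other promoters. Peaks at the CpG-rich promoters among these had medians of 404 and 672 bp. Of the member peaks, 36.8% and 72.5% stood among the widest 10% of their list, against 22.0% and 36.8% of other promoter peaks.

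Height behaved differently in the libraries. Without density gradient centrifugation the median fold enrichment was 5.70 at member peaks and 5.50 at other promoter peaks, and 18.7% and 18.9% stood among the most significant 10% of the list. In the 50 µL list the medians were 4.69 and 3.85, and 59.4% of member peaks stood among the most significant 10%, against 31.2% of other promoter peaks and 34.8% of those at CpG-rich promoters. Fold enrichment and q are not comparable between lists of unknown depth, and the unlike windows of the classes apply here too.

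The distance between the 5′ ends was short for most pairs, with quartiles of 66.2 and 240 bp and 602 pairs (82.0%) at up to 300 bp. The closest pairs with a peak in both libraries were Bag4/Lsm1 and Slc7a6os/Prmt7, whose 5′ ends are adjacent bases, followed by Dhrs1/Nop9 at 3 bp, Bag5/Apopt1 at 4 bp and Eif2b1/Gtf2h3 at 9 bp. Lsm1 takes part in mRNA decapping and Gtf2h3 is a subunit of the transcription factor TFIIH. The peaks of these 5 pairs were 413 to 658 bp wide without density gradient centrifugation and 369 to 1149 bp in the 50 µL library. Pairs had 1 peak in their window far more often than several: 579 of 602 without density gradient centrifugation and 644 of 667 in the 50 µL library had 1, and 23 pairs in each had 2.

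A single peak covered both 5′ ends at 442 of 602 pairs with a peak without density gradient centrifugation (73.4%, 69.7 to 76.9) and at 613 of 667 in the 50 µL library (91.9%, 89.6 to 93.9). The share fell with distance. Without density gradient centrifugation it went from 90.9% (86.7 to 94.2) at up to 100 bp through 78.1% (70.9 to 84.3) at up to 200 bp, 64.7% (53.6 to 74.8) at up to 300 bp and 52.7% (38.8 to 66.3) at up to 500 bp, each group starting where the last ended, to 4.17% (0.509 to 14.3) beyond 500 bp. In the 50 µL library it stayed at 90.2% or more up to 500 bp and was 46.6% (33.3 to 60.1) beyond. Separate peaks over the 2 ends were rare, 8 pairs and 6 pairs, of which 7 and 6 stood more than 500 bp apart.

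Any wide peak can cover a stretch, so the same count was made at the other 5′ ends that had a peak, from the 5′ end to a point upstream at the median distance of each group of pairs. At 57 bp upstream, 75.9% (74.8 to 76.9) without density gradient centrifugation and 86.7% (85.9 to 87.4) in the 50 µL library had 1 peak over both points, beside 90.9% and 97.9% of pairs. At 144 bp the other 5′ ends had 63.2% (62.0 to 64.4) without density gradient centrifugation, beside 78.1% of pairs, a gap much like that at 57 bp. At 349 bp the other 5′ ends had 17.2% (16.3 to 18.1) and 54.9% (53.8 to 55.9), and those with CpG-rich promoters 20.4% (19.3 to 21.6) and 65.2% (64.0 to 66.4), while pairs more than 300 and up to 500 bp apart had 52.7% and 90.2% (79.8 to 96.3). Beyond 500 bp the intervals of pairs and CpG-rich other 5′ ends overlapped without density gradient centrifugation, at 4.17% and 0.780% (0.553 to 1.07), and were apart in the 50 µL library, at 46.6% and 21.1% (20.1 to 22.2).

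**Figure D3:**
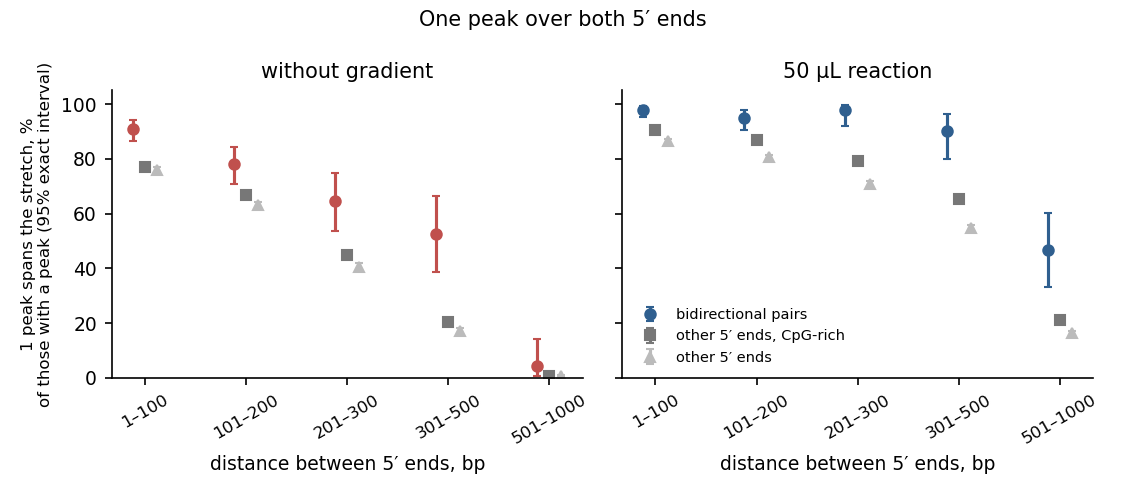
Share of windows with a peak in which 1 peak spans the whole stretch (y axis, percent, exact 95% intervals), by distance between 5′ ends (x axis, bp), without density gradient centrifugation (left) and in the 50 µL library (right). Circles are bidirectional pairs, and squares and triangles are other 5′ ends, CpG-rich and all, measured from the 5′ end to a point upstream at the median distance of each group. Pairs lie above other 5′ ends in every group, and at more than 300 and up to 500 bp they reach 52.7% and 90.2% against 17.2% and 54.9%.

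Summits did not centre on the pairs. Taken along the genome coordinate, the median summit lay 76.5 bp (602 pairs) and 80.5 bp (667 pairs) above the midpoint of the pair, on the side of the plus-strand gene. It was nearer to the plus-strand gene at 443 pairs and to the minus-strand gene at 159 without density gradient centrifugation, and at 485 and 182 in the 50 µL library. Which gene of a pair is on the plus strand is a convention of the assembly, so the same measure was taken at other 5′ ends. There the median summit lay 30.0 bp above the 5′ end of 3606 plus-strand genes and 127 bp above that of 3627 minus-strand genes without density gradient centrifugation, and 46.0 and 118 bp above in the 50 µL library. A displacement that followed the direction of transcription would have opposite signs on the strands, whereas these values share a displacement of 78.5 and 82.0 bp towards higher coordinates, with the remainder placing summits 48.5 and 36.0 bp upstream of the 5′ end. The methods state a shift of 0 and no extension length for peak calling, and the source of the displacement was not tested.

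**Figure D4:**
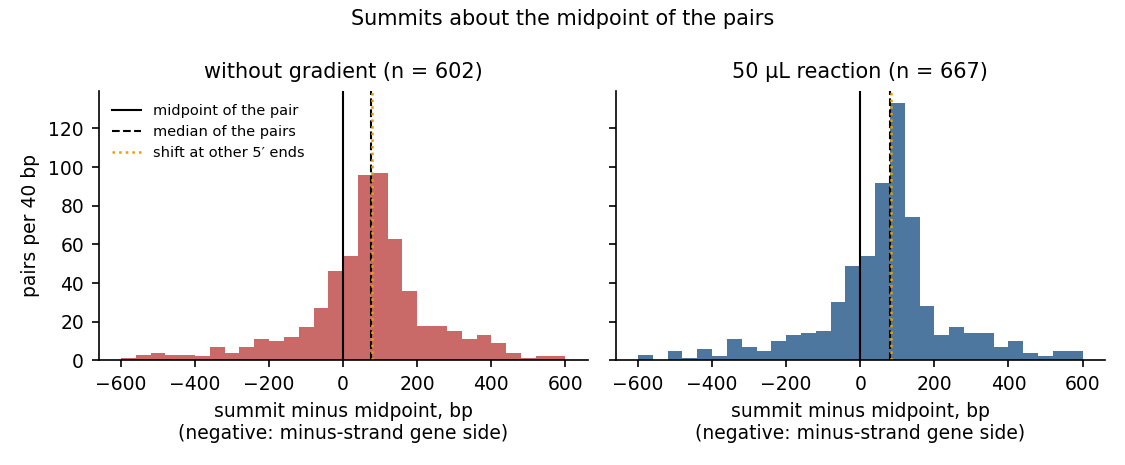
Number of pairs (y axis, per 40 bp) by position of the summit of the most significant peak relative to the midpoint of the pair (x axis, bp, negative on the side of the minus-strand gene), for 602 pairs without density gradient centrifugation (left) and 667 pairs in the 50 µL library (right). Solid lines mark the midpoint, dashed lines the medians of 76.5 and 80.5 bp, and dotted lines the displacement of 78.5 and 82.0 bp measured at other 5′ ends. Summits farther out than the axis are not drawn.

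With the displacement from the other 5′ ends taken off, the median summit of the pairs was at −2.00 bp without density gradient centrifugation and at −1.5 bp in the 50 µL library, against the midpoint at 0, with 307 and 294 pairs on the sides of the minus-strand and plus-strand gene without density gradient centrifugation and 340 and 326 in the 50 µL library. Summits that fell between both 5′ ends went from 165 of 602 (27.4%) to 287 (47.7%) and from 206 of 667 (30.9%) to 348 (52.2%). Peaks that covered a single 5′ end showed the same: as deposited, 85 covered only that of the plus-strand gene and 41 only that of the minus-strand gene without density gradient centrifugation, and 22 and 12 in the 50 µL library. After the move these counts were 51 and 51, and 15 and 19. The shares of pairs with a peak changed little, to 82.3% and 90.7%. A statement on which gene of a pair is the more open thus cannot be read from the deposited summits without this correction. Between libraries, summits of the same pair were a median of 66 bp apart (quartiles 25 and 173, 601 pairs).

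Motif matches were compared in 300 bp windows at the midpoints of pairs and at all 20807 protein-coding promoters, from 250 bp before to 50 bp after the 5′ end. A midpoint window lies between the 5′ ends of 2 protein-coding genes and a promoter window is set on 1, and the part of this in the shares was not tested. All promoters include those of the pairs. ETS letters stood at 208 of 734 midpoints (28.3%, 25.1 to 31.7) against 11.0% (10.6 to 11.5) of all promoters and 18.1% (17.3 to 19.0) of CpG-rich promoters of other genes. NRF1 letters stood at 20.8% (18 to 24.0) against 8.17% and 16.2%, and NF-Y letters at 15.8% (13.2 to 18.6) against 8.62% and 9.96%. YY1 letters were rarer but followed the same order, 5.45% (3.92 to 7.35) against 1.70% and 2.89%. SP/KLF letters stood at 32.2% (28.8 to 35.7) of midpoints, above the 21.1% of all promoters and below the 39.3% (38.2 to 40.4) of CpG-rich promoters. With the pairs limited to CpG-rich ones as well, ETS stood at 32.9% (29.1 to 36.8), NRF1 at 25% (21.6 to 28.7), NF-Y at 14.8% (12 to 17.9) and YY1 at 6.21% (4.41 to 8.46), each still above CpG-rich promoters of other genes, while SP/KLF at 37.2% (33.4 to 41.3) overlapped them. TATA letters stood at 2.45% (1.46 to 3.85) of midpoints, below the 4.95% (4.65 to 5.25) of all promoters, and their interval took in the 1.90% (1.60 to 2.23) of CpG-rich promoters. CRE, E-box, BANP and ZNF143 letters stood at 4.50%, 10.9%, 3.81% and 0.817% of midpoints, beside 2.43%, 7.82%, 1.22% and 0.524% of all promoters and 4.03%, 11.9%, 2.34% and 0.497% of CpG-rich promoters of other genes. Of these, the E-box was the 1 that was lower at midpoints than at CpG-rich promoters, within its interval (8.74 to 13.4).

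Pairs with and without a peak differed in some of these letters. ETS letters stood at 188 of 601 midpoints with a peak in both libraries (31.3%, 27.6 to 35.2) and at 8 of 66 with none (12.1%, 5.38 to 22.5). NRF1 stood at 22.3% (19.0 to 25.8) and 7.58% (2.51 to 16.8), and SP/KLF at 32.8% (29.0 to 36.7) and 13.6% (6.43 to 24.3), again with intervals apart. NF-Y did not share this order, with 16% (13.1 to 19.2) and 18.2% (9.76 to 29.6). TATA letters stood at 15 of 601 (2.50%) and at 0 of 66, an interval that reaches 5.44%. Base content differed as well, since 85.4% of pairs with a peak in both were CpG-rich and 43.9% of those with none.

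**Figure D5:**
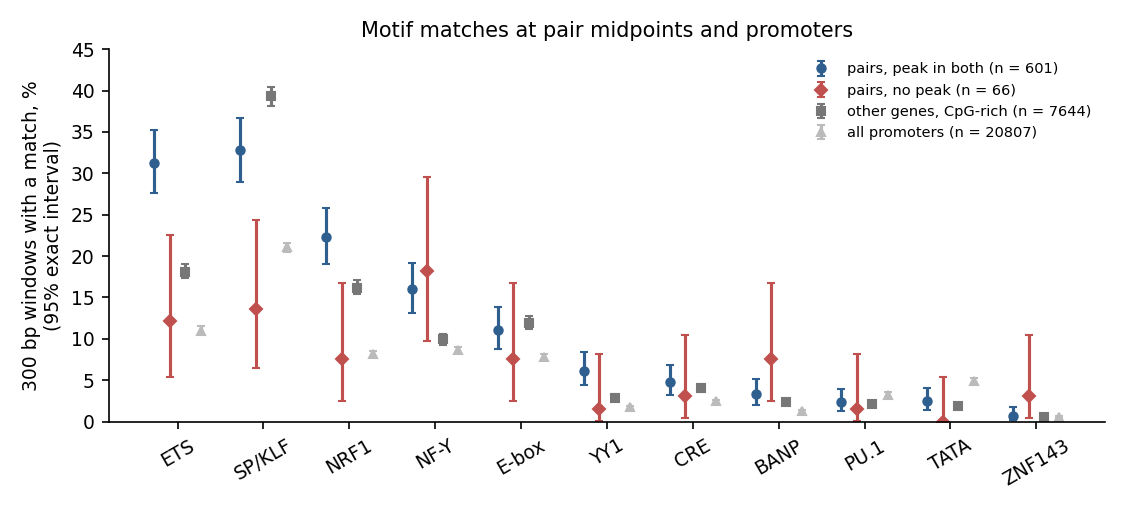
Share of 300 bp windows with at least 1 match to each motif (y axis, percent, exact 95% intervals) at pair midpoints with a peak in both libraries, at pair midpoints with no peak, at CpG-rich promoters of other genes and at all protein-coding promoters. ETS reaches 31.3% of pairs with a peak, 12.1% of pairs without and 11.0% of all promoters, and NF-Y 16%, 18.2% and 8.62%.

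Under the summits themselves the order held for ETS, NRF1 and NF-Y in both libraries, with classes that were not matched for CpG. Summit windows were CpG-rich in 87.8% of member peaks and 71.3% of other promoter peaks without density gradient centrifugation. In the 50 µL library it was 83.8% and 54.6%. ETS letters stood in 27.4% (23.9 to 31.2) of member summit windows and 19.2% (18.3 to 20.1) of other promoter summits without density gradient centrifugation, and in 22.3% (19.2 to 25.7) and 12.9% (12.3 to 13.5) in the 50 µL library. NRF1 letters stood in 19.4% (16.3 to 22.7) against 14.1% (13.3 to 14.9) and in 17.3% (14.5 to 20.3) against 8.66% (8.17 to 9.16). NF-Y letters stood in 14.6% (11.9 to 17.7) against 9.58% (8.93 to 10.3) and in 15.0% (12.4 to 18) against 7.54% (7.09 to 8.01). Without density gradient centrifugation the intervals overlapped for SP/KLF, 27.3% (23.8 to 31.0) against 26.3% (25.3 to 27.3). They overlapped there for YY1 too, 4.27% (2.81 to 6.19) against 2.69% (2.33 to 3.08). In the 50 µL library both had intervals apart, SP/KLF at 31.8% against 23.7% and YY1 at 3.72% against 1.75%. Letters of PU.1, an ETS factor of B cells and myeloid cells, stood in 1.64% (0.790 to 3.00) of member summits and 3.35% (2.96 to 3.79) of other promoter summits without density gradient centrifugation. These intervals overlapped slightly, and those of the 50 µL library overlapped too, at 2.68% (1.60 to 4.20) and 3.58% (3.27 to 3.92). Over all autosomal peaks the shares were 6.88% (6.57 to 7.20) and 5.72% (5.57 to 5.88). At midpoints of CpG-rich pairs the letters stood in 2.68% (1.54 to 4.32), with an interval that took in the 2.11% (1.80 to 2.45) of CpG-rich promoters of other genes.

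The gene lists, chosen with earlier results of these data known, differed in the share of their genes that stood in pairs. Over all protein-coding genes 6.96% were in a pair. Of replication-dependent histone genes 27 of 67 (40.3%) were, the highest share of the 13 lists, and of proteasome genes 7 of 47 (14.9%). Of the DNA repair list 39 of 123 genes (31.7%) were, of splicing and RNA processing 26 of 95 (27.4%), of mitochondrial proteins 46 of 233 (19.7%), of DNA replication and cell division 15 of 92 (16.3%), and of ribosomal proteins and translation factors 15 of 144 (10.4%). Of the immune list it was 1 gene of 142 (0.704%), of developmental regulators 3 of 184 and of collagens 2 of 42. The share in pairs is a property of the annotation and not of the libraries.

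Inside the lists of basic cell functions the pairs and the other genes lay much closer than over all genes, and in several lists the pairs were the lower ones in point values. DNA repair genes outside pairs had a peak within 1 kb in 75 of 84 (89.3%) without density gradient centrifugation and 80 of 84 (95.2%) in the 50 µL library, beside 85.7% and 95.2% of pairs. For mitochondrial proteins the other genes had 87.8% and 91.0% and the pairs 95.6% and 97.8%, for ribosomal proteins and translation factors 85.3% and 90.7% beside 86.7% and 93.3%, and for replication and cell division 89.6% and 93.5% beside 93.3% in each library. Splicing genes outside pairs had 81.2% and 92.8%, beside all 26 pairs. The pairs were lower in both libraries for the proteasome, 71.4% in each beside 82.5% and 85% of other genes, and for histones, 50.0% in each beside 55.0% and 62.5%. The lists hold few pairs, the window at other genes was wider, and a pair counts for a list through 1 gene only in most cases, so these values are given side by side and were not tested. Immune genes outside pairs had 44.0% and 80.9%, developmental regulators 7.18% and 24.3%, and listed genes of other tissues 4.08% and 10.2%.

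DNA repair genes stood in 42 pairs, of which 36 had a peak without density gradient centrifugation and 40 in the 50 µL library, beside 602 and 667 of all 734. Toe1/Mutyh had −log10 q 18.4 without density gradient centrifugation and 71.0 in the 50 µL library, and Mutyh is the glycosylase that removes adenine opposite oxidised guanine. Ndufaf2/Ercc8 stood at 18.1 and 68.4, Ercc8 being a factor of transcription-coupled repair. Recql/Golt1b, with a DNA helicase, had 11.8 and 64.8. At Atm/Npat, the kinase of the double-strand break response beside an activator of histone transcription, 1 peak of 428 and of 794 bp covered both 5′ ends, 307 bp apart, at 12.6 and 63.8. These 4 were named for the highest 50 µL values of the list, as the pairs with peaks are in the lists that follow, and its median there was 50.2 beside 47.1 over all pairs. Without density gradient centrifugation, which did not choose them, 2 lay above and 2 below the median of 14.1 over all pairs.

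The 15 pairs of DNA replication and cell division had a peak at 14 in each library. Abce1/Anapc10, with a subunit of the anaphase-promoting complex, reached −log10 q 32.6 and 63.2. Mcm4/Prkdc, a subunit of the replicative helicase beside the catalytic subunit of the DNA-dependent kinase of end joining, had 1 peak of 1017 and of 1389 bp over both ends at 23.1 and 61.4. Pole3/4933430I17Rik, with a small subunit of DNA polymerase epsilon, had 24.4 and 59.7.

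All 26 pairs of splicing and RNA processing had a peak in both libraries, and in the 50 µL library 1 peak covered both 5′ ends at all 26. Their −log10 q ranged from 6.79 to 35.9 without density gradient centrifugation and from 25.8 to 71.7 in the 50 µL library. Bckdha/Exosc5, a subunit of the RNA exosome beside one of the branched-chain ketoacid dehydrogenase, had the highest 50 µL value of the list with 21.6 and 71.7, while Exosc1/Zdhhc16 was highest without density gradient centrifugation at 35.9. Dhx38/Txnl4b, with a helicase of the spliceosome, had 19.1 and 65.9, Pdap1/Bud31 18.6 and 64.4, and Xpc/Lsm3, which joins a damage sensor to a U6 snRNA-binding protein, 24.3 and 61.0.

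The mitochondrial proteins had a peak at 43 and 44 of 45 pairs and the highest median −log10 q of the functional groups in the 50 µL library, 55.9, beside 47.1 over all pairs. Mrpl54/Apba3 had −log10 q 17.9 and 80.9, Ndufa8/Morn5 39.6 and 80.5, Mrpl37/Cyb5rl 24.7 and 79.8 and Mrpl32/Psma2 25.4 and 79.1. Mrpl genes encode proteins of the large subunit of the mitochondrial ribosome. Psma2, a subunit of the proteasome core, is in the proteasome list too, which had a peak at 5 of 7 pairs in both libraries, among them Cep76/Psmg2 (19.5 and 49), Psme2/Rnf31 (9.07 and 42.1) and Psmb1/Tbp (19.6 and 40.3).

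Ribosomal proteins and translation factors had a peak at 13 and 14 of 15 pairs. Med22/Rpl7a stood at −log10 q 15.3 and 68.5, Atp6v1d/Eif2s1 at 9.64 and 63.4, Rps28/Ndufa7 at 24.5 and 59.1 and Eef1d/Tigd5 at 12.3 and 57.5. Rps28/Ndufa7, 10 bp apart, joins a protein of the cytosolic ribosome to a subunit of complex I and its midpoint window held E-box, BANP and TATA letters. The Zfp genes of zinc finger proteins had a peak at 13 and 16 of 18 pairs. The highest in the 50 µL library were Zfp277/Dock4 (14.7 and 62.0), Ccdc92/Zfp664 (8.28 and 59.2), Zfp142/Bcs1l (14.2 and 58.6) and Zfp169/A830005F24Rik (28.9 and 57.4), of which the last was the highest without density gradient centrifugation. Pairs with a predicted (Gm) or Riken clone gene were lower, at 54 and 62 of 74, with Anxa5/1810062G17Rik (21.9 and 82.8), Cc2d1a/4930432K21Rik (18.5 and 77.2) and Gm28635/Med19 (19.9 and 76.3) after H2-T22/Gm6034.

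Replication-dependent histone genes encode the core histones made in S phase and stand in clusters of near-identical copies, many as head-to-head H2a and H2b genes. They made up 14 pairs with 27 of 67 listed genes, of which 7 pairs had a peak in both libraries and 7 in neither. Over all 734 pairs, 601 had a peak in both libraries and 66 in neither, so pairs seen in 1 library only were few there too. None of the 14 was CpG-rich, and their median GC content was 43.7% beside 62.7% over all pairs. Hist1h2bh/Hist1h3f had −log10 q 17.1 and 60.1, Hist1h2ac/Hist1h2bc 12.4 and 57.6, Hist1h2ah/Hist1h2bk 24.0 and 53.3 and Hist1h2ag/Hist1h2bj 9.97 and 34.6. Bola1/Hist2h2ab, Hist1h2ap/Hist1h2br, Hist2h2ac/Hist2h2be and Hist1h2an/Hist1h2bp were the closest pairs without a peak, and their nearest 50 µL peaks lay 21463 to 36258 bp away. Reads from near-identical copies can be lost or split in alignment, and the part of this in the result was not tested.

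Of the listed genes of other tissues 3 of 52 (5.77%) were in a pair, close to the 6.96% of all genes. Cd8b1, a coreceptor chain of cytotoxic T cells, was the only listed immune gene in a pair, with Smyd1, a methyltransferase of muscle. It had no peak without density gradient centrifugation, where the nearest lay 50561 bp away, and 2 peaks in the 50 µL library, the better of 300 bp at −log10 q 28.9 over the 5′ end of Cd8b1 only. Klc3/Ckm, 672 bp apart, had peaks of 246 and 302 bp (−log10 q 10.8 and 21.0). As deposited, they lay between the genes and covered neither 5′ end, nearer to Klc3, a kinesin light chain, than to the creatine kinase Ckm. They began at 19404160 and 19404134, above the 5′ end of Klc3 at 19404104 by less than the displacement of 78.5 and 82.0 bp. Moved by that displacement, both peaks would cover the 5′ end of Klc3. Kirrel2/Nphs1, whose Nphs1 encodes nephrin of kidney podocytes, and Col4a4/Col4a3, the collagen chains of the glomerular basement membrane, had no peak in either library. Of the 3 developmental regulators, Rhno1/Foxm1 (6.52 and 30.2) and Foxa3/Sympk (11.1 and 24.6) had peaks in both, below the medians of all pairs, and Sox6/1110004F10Rik had none. As deposited, the peaks of Rhno1/Foxm1 covered both 5′ ends, while those of Foxa3/Sympk covered that of Sympk only and not that of Foxa3.

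Of the 66 pairs without a peak in either library, 11 had a 50 µL peak within 1 kb and 26 within 5 kb, and the median distance to the nearest was 9068 bp. Some hold genes that cells of every kind use. Psma7/Ss18l1 and Ftsj3/Psmc5, with proteasome subunits, had their nearest 50 µL peaks 17001 and 38447 bp away. For Alyref/Anapc11, an mRNA export factor beside a subunit of the anaphase-promoting complex, it was 60548 bp, for 1300017J02Rik/Topbp1, with an activator of the replication checkpoint, 16459 bp, and for Rnf151/Rps2, with a ribosomal protein, 1460 bp. At Timm23/Parg, a mitochondrial import channel beside the glycohydrolase of poly(ADP-ribose), a 50 µL peak stood 315 bp off, outside the window, and at Pinlyp/Xrcc1, with the scaffold of single-strand break repair, 323 bp off. The GC content of these 7 windows ran from 51.0% to 73.3%, and the list of regions removed by the authors was not used here, so absence of a peak at these genes is a property of the lists and not a measurement of closed chromatin.

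Pairs with a peak were spread over every autosome. The number of pairs ran from 10 on chromosome 18 to 68 on chromosome 11, and the share of protein-coding genes in pairs from 3.90% on chromosome 18 to 9.71% on chromosome 8. On chromosome 8, 48 and 51 of 52 pairs had a peak, and on chromosome 15 it was 19 and 20 of 26.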

How the data were processed

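Peaks of accessible chromatin were analysed in 2 scFFPE-ATAC libraries of mouse spleen, 1 per condition. The authors used BWA mem v0.7.17 for alignment to mm10, their own script against duplicates, MACS2 v2.1.2 for peaks of each library (no model, shift 0, q of 0.01) and bedtools v2.30.0 to take out a blacklist. BWA and SAMtools also stand in the submitters' processing notes. The deposited lists give fold enrichment (a ratio of pileup to local background at the summit), −log10 p and −log10 q from MACS2, a display score that was not used, and the distance of each summit from the peak's first base.

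Genes came from GENCODE vM21 and DNA from RefSeq GRCm38.p6, the assembly of mm10. Chromosome lengths were checked against the peaks. Overlap meant at least 1 bp. A peak at a pair was left out of the values of other promoter peaks, but still counted where it lay within 1 kb of another 5′ end. The pairs, gene lists and motifs were chosen with earlier results of these data known. Named pairs were the 10 most significant of each library, the 4 most significant in the 50 µL library and up to 5 without a peak for each of 13 lists (4 of shortest distance where there were more), the 5 of shortest distance and those found only without density gradient centrifugation. The printed stretches were the 6 with the highest mean rank and 3 without a peak. The alternatives tried were a limit of 5 on −log10 q, one of 4 on fold enrichment, equal list lengths, summits in place of overlap, a distance of 500 bp, no extension, 200 bp windows, named genes only, X and Y included, transcript 5′ ends, CpG-rich promoters and 200 bp motif windows. Moved peaks, pairs without a shared gene and CpG-rich pairs were added after seeing the data. With 1 library per condition there are no replicates and no p-values, and leaving out a library was not possible. Intervals (95%, exact) and counts were checked on simulated data. Python 3.11.15, numpy 2.4.6, pandas 2.3.3, scipy 1.17.1, pysam 0.24.0 and matplotlib 3.10.9 were used.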

Additional observations from a re-analysis of the deposited data

Results flagged for a closer look

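The rule for pairs took autosomes only, so pairs on chromosome X are data outside the main measurement. Of 20 X pairs, 11 had a peak without density gradient centrifugation (55.0%, exact 95% interval 31.5 to 76.9) and 13 in the 50 µL library (65.0%, 40.8 to 84.6), which is above 0 and below the 82.0% and 90.9% of autosomal pairs. Among the 13 were Pqbp1/Timm17b, Idh3g/Ssr4, Gla/Hnrnph2 and Ribc1/Smc1a. The 7 without a 50 µL peak were Asb12/Pfn5, Gm4779/8030474K03Rik, Gm9112/Dmrtc1b, Dmrtc1a/1700011M02Rik, Nup62cl/Pih1h3b, Trpc5/Rtl4 and Ptchd1/Gm15155. The share of other 5′ ends with a peak fell as well when X and Y were included. Without density gradient centrifugation it was 36.3%, against 37.4% on autosomes alone, and it was also lower in the 50 µL library. A lower share on these chromosomes was thus not particular to pairs. The other 5′ ends of X and Y were not counted on their own, and no explanation was tested.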

How the results depend on the processing

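Of 81 alternative values, 53 moved by less than the counting interval and 28 by more. Only the 25 differences between pairs and other 5′ ends could change sign, and the pairs lay above other 5′ ends in 25 of 25. Values are given without density gradient centrifugation and then for the 50 µL library. The share of pairs with a peak (82.0% and 90.9%) was 74.9% and 71.9% with a fold enrichment of at least 4, 74.5% and 78.3% when the summit had to lie in the window, 78.4% without density gradient centrifugation with transcript 5′ ends and 86.1% in a 50 µL list cut to the shorter length. The difference from other 5′ ends (44.7 and 40.8 points) was 41.0 without density gradient centrifugation at that fold enrichment, 37.8 and 29.6 by summits, 47.3 in the shortened 50 µL list and 49.4 and 46.2 with 200 bp windows at other 5′ ends. It was 16.3 and 11.1 against CpG-rich other 5′ ends and 20.3 and 15.4 between CpG-rich pairs and CpG-rich other 5′ ends, a smaller difference than over all promoters. The share with 1 peak over both 5′ ends (73.4% and 91.9%) was 79.4% and 96.2% within 500 bp and 94.5% in the 50 µL library at that fold enrichment. The shortened list had a median fold enrichment of 4.80 at member peaks (4.69 in full). Summit windows of 200 bp were CpG-rich in 84.9% and 80.2% and held ETS letters in 19.5% and 15.3%, NRF1 in 14.1% and 12.5% and NF-Y in 10.7% and 11.5%, as shorter windows hold fewer matches. Moving peaks by the measured displacement left all 3 shares within their intervals. The shorter list could not be shortened, so that alternative has no value without density gradient centrifugation. No paired analysis was possible because each condition has 1 library. Read depth is unknown, so absence of a peak, fold enrichment and q could not be set against it.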

Other observations

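Head-to-head pairs whose 5′ ends overlap stand just outside the rule, which asks for a gap between them. Autosomal pairs with an overlap of up to 500 bp were taken with the same extension of 200 bp. Of them, 230 had a peak without density gradient centrifugation (76.4%, 71.2 to 81.1) and 262 in the 50 µL library (87.0%, 82.7 to 90.6). These shares lie below those of pairs with a gap, 82.0% (79.0 to 84.7) and 90.9% (88.6 to 92.9), with intervals that overlap.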
